A study of Mus musculus with 104 samples.

Results

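D6 is an N-acetylgalactosamine (GalNAc)-conjugated small interfering RNA against mouse Ttr, the mRNA of transthyretin, in which the nucleotide at position 6 of the guide strand (counted from its 5′ end) is replaced by the isoguanine form of glycol nucleic acid, (S)-GNA-isoG. The results below concern D6 at 1 nM. Its 4 libraries were those labelled with that treatment, out of 104 in the series, and they were compared with the 8 libraries labelled as mock. All were RNA-sequencing libraries of primary mouse hepatocytes (PMH) of commercial origin that were lipofected with Lipofectamine RNAiMax in 384-well plates and lysed after 24 h, and the mock wells are labelled as controls for the transfection. Neither the strain, sex nor age of the donor animals is given in the labels. D4, the parent siRNA of the same sequence without GNA, and D5, with ordinary GNA-G at position 6, were included at 1 nM with 4 libraries each, and D6 itself at 0.1, 10 and 50 nM with 4 libraries each. The labels number the replicates without saying whether they were separate cultures, so p-values measure only the spread between these libraries, which may be technical.

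Transthyretin is a plasma protein made mainly by hepatocytes that carries thyroxine and, through retinol-binding protein, vitamin A. A GalNAc-siRNA guide strand is loaded into Argonaute, pairs along its whole length with the target mRNA and has it cut. The same loaded guide can also act like a microRNA, repressing mRNAs whose 3′-UTR pairs only with its seed, guide positions 2 to 8. The GNA-isoG of D6 at position 6 lies inside that seed. The study reports that GNA-isoG destabilized the siRNA duplex, but less than GNA-G did.

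The letters opposite guide positions 2 to 8 of D6 are CTCTATA in an mRNA, where the C opposite the GNA-isoG is the third letter. A gene was placed in the class of the strongest match in its longest annotated 3′-UTR: mer8 (CTCTATA followed by A), mer7m8 (CTCTATA alone) or mer7A1 (TCTATA followed by A). Of the called genes with a mer8 match, 6 with the largest falls are shown first (Ttr and Lmnb1 are left out), as 30-base windows of the transcript strand with the match in capitals.
Axl: gatttttctggCTCTATAAttcgtggcaat
Slc25a40: tatttacttatCTCTATAAagcaaaaagca
Bub1: atgtcattaacCTCTATAAaaatacctctg
Bcl2l2: aaaagaaaaagCTCTATAAatataaatata
Otud4: ctgataggcttCTCTATAAaagagtgtttt
Uhmk1: gagctaacacaCTCTATAAccatttcttcc

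In GRCm39 the windows lie at chr7:25457714-25457743, - strand (Axl), at chr5:8504539-8504568, + strand (Slc25a40), at chr2:127646521-127646550, - strand (Bub1), at chr14:55125543-55125572, + strand (Bcl2l2), at chr8:80401527-80401556, + strand (Otud4) and at chr1:170026693-170026722, - strand (Uhmk1), all in annotated 3′-UTR. Weaker matches of genes with large falls, chosen after their values were seen, were the mer7A1 sites of Tstd3 (chr4:21758355-21758384, - strand) and Btbd10 (chr7:112915427-112915456, - strand) and the mer7m8 sites of Nck1 (chr9:100377327-100377356, - strand) and Tgfbr1 (chr4:47411231-47411260, + strand).
Tstd3: cggtgttcataTCTATAAggatggtggatt
Btbd10: ctcgttcgagtTCTATAAatgtatttgttt
Nck1: atgcagtgcatCTCTATAgaagagttcttt
Tgfbr1: aacactttaaaCTCTATAgtctaaaaaata

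Windows of a different kind come from Kpna6 and Clic1, also chosen after their values were seen, because these genes differed between the siRNAs (below). Here the capitals mark the longest run of letters shared with the 21-base Ttr site of the siRNA, as read from the reference Ttr transcripts. The Kpna6 run has 14 letters, lies opposite guide positions 5 to 18 and is in the 3′-UTR (chr4:129541273-129541302, - strand), so that it includes position 6 but only part of the seed. The Clic1 run has 13 letters, lies opposite positions 3 to 15 and is in the transcript outside its longest annotated 3′-UTR (chr17:35271794-35271823, + strand).
Kpna6: ccaaacaaAGTGTTCTTGCTCTgacccata
Clic1: cagctgccGTTCTTGCTCTATggcaccgaa

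The summed counts of the 4 D6 libraries lay between 4868125 and 4941823 reads on genes, and those of the 8 mock libraries between 3409963 and 5308584, with medians of 4904728 and 4927571. ERCC spike-ins took 0.503% to 0.896% of the counts with D6 and 0.453% to 0.790% in mock, ranges that overlapped. Hepatocyte markers were present but uneven: Alb (albumin) had a median of 14781 CPM (a gene's count relative to the library total on genes, after TMM scaling) with D6 and 13460 CPM in mock, whereas Tat, Asgr1 and Cps1 were below 12 CPM in every library of both groups. No hepatocyte marker was called between the groups, among 11 of 12 tested. Of 12 Kupffer cell and macrophage markers 8 had no read in any of these 12 libraries, Clec4f, Vsig4 and Adgre1 among them, and the most abundant, Cd68, was at 21.9 CPM with D6 and 19.9 CPM in mock. Of 12 lymphocyte and NK cell markers 8 had no read, Ptprc among them. Of 12 endothelial markers 3 had no read, Cdh5 and Tek among them. The most abundant, Stab1, was at 7.81 CPM with D6 and 7.14 CPM in mock. Of 12 stellate cell and fibroblast markers 2 had no read, Des among them. The most abundant, Reln, was at 17.8 CPM with D6 and 20.7 CPM in mock. Cholangiocyte markers, of which none was at 0, summed to 327, 354, 360 and 338 CPM with D6 and to 295 to 316 CPM in mock (median 306), and their most abundant gene, Krt19, was at 128 and 113 CPM.

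Ttr was almost completely silenced. The 4 D6 libraries held 9, 12, 5 and 5 Ttr reads, or 1.82, 2.48, 1.01 and 1.04 CPM, against 542 CPM in the lowest, 677 CPM in the middle and 731 CPM in the highest mock library. The groups were far apart, and the fitted log2 fold change was -8.68 (SE 0.133, edgeR quasi-likelihood test, adjusted p = 2.4e-30), a residual level of 0.244% of mock. With so few reads the residual level is imprecise.

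Ttr was also low at each of the other doses of D6. Ttr was at 5.84, 2.74, 4.39 and 3.22 CPM with D6 at 0.1 nM, at 1.03 to 1.80 CPM at 10 nM and at 0.81 to 1.74 CPM at 50 nM. The libraries at 1 nM lay below those at 0.1 nM without overlap and overlapped those at the higher doses. Between 10 and 0.1 nM, which share no library with the comparison at 1 nM, Ttr fell by a further 1.59 on the log2 scale (adjusted p = 0.0014).

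Besides Ttr, 144 genes were lower and 95 higher with D6 at 1 nM than in mock, at an adjusted p under 0.05. With Ttr, these 240 were 2.13% of the 11287 genes tested, with 1.28% called lower and 0.842% higher. The changes were small, with a median of -0.39 on the log2 scale among the fallen genes besides Ttr and 0.39 among the risen, a largest fall of -1.41 (Tstd3) and a largest rise of 1.24 (Cnksr1). Of the 145 fallen genes with Ttr, 97 (66.9%) had all 4 D6 libraries below all 8 mock libraries. Of the 95 risen genes, 47 (49.5%) had all 4 above. Among all genes tested these shares were 1.45% and 0.868%, but the called genes were picked in the same libraries, which by itself raises their shares. The number of called genes depended on single libraries: it was 111 without D6 replicate 4, 125 without D6 replicate 2, 141 without mock replicate 7 and, at the highest, 342 without mock replicate 6. It was 372 with all genes of at least 1 count tested and 392 with mock replicates 1 to 4 as the only mock libraries.

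Kpna6, which codes for an importin alpha that carries proteins into the nucleus, was the most firmly called gene after Ttr. It was at 82.1, 87.1, 85.6 and 80.3 CPM with D6, against 131, 144 and 157 CPM in the lowest, middle and highest mock library, and fell by 0.78 on the log2 scale (SE 0.061, adjusted p = 1.4e-11). All 4 D6 libraries lay below the mock range. Of the 31 genes besides Ttr whose transcripts share a run of at least 13 letters with the Ttr site, 3 were called lower, namely Kpna6, Cnot6 and Otud4, or 9.68% beside the 1.28% of all genes. With shorter runs the share was nearer to that of all genes, at 6 of 108 (5.56%) for at least 12 letters, 8 of 404 (1.98%) for at least 11 letters and 27 of 1403 (1.92%) for at least 10. Cnot6, a deadenylase subunit of the CCR4-NOT complex, was at 105, 119, 126 and 116 CPM against a mock range of 146 to 167 CPM (log2 fold change -0.46, adjusted p = 2.0e-06). The median log2 fold change of the 31 was -0.01, and the 2 genes with a run of 15 letters were not called.

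The largest fall was that of Tstd3, a thiosulfate sulfurtransferase-like gene, at 10.9, 10.8, 10.7 and 11.6 CPM with D6 against 23.2, 29.8 and 36.7 CPM in mock (lowest, median, highest). This left 37.8% of the mock level (log2 fold change -1.41, SE 0.123, adjusted p = 2.8e-10), and the D6 libraries spanned less than 1 CPM. Ccne1, cyclin E1, which drives entry into S phase, was at 9.70, 9.72, 8.09 and 9.96 CPM against 20.04, 24.3 and 26.9 CPM. It fell by 1.35 (SE 0.127, adjusted p = 1.7e-09), again without overlap. Btbd10, a BTB domain gene, was at 8.09, 8.48, 11.3 and 12.04 CPM against 17.05, 20.3 and 25.2 CPM (log2 fold change -1.05, adjusted p = 4.0e-06). All 3 carry a mer7A1 match.

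Axl, a receptor tyrosine kinase for the ligand Gas6, carries the mer8 site printed above. It was at 17.6, 13.2, 16.995 and 13.9 CPM with D6 against 21.8, 30.2 and 37.4 CPM in mock, 51.4% of mock (log2 fold change -0.96, SE 0.124, adjusted p = 2.5e-06). Gas6 itself was among the called higher genes (log2 fold change 0.41), a gene named after its value was seen. Slc25a40, a mitochondrial carrier, was at 8.29, 11.8, 9.31 and 8.72 CPM against 12.8, 17.5 and 19.4 CPM (log2 fold change -0.82, adjusted p = 0.00034). Bub1 (mitotic checkpoint kinase), Bcl2l2 (anti-apoptotic Bcl-w), Otud4 (a deubiquitinase) and Uhmk1 (a serine/threonine kinase) fell by 0.45, 0.43, 0.43 and 0.35, each with its 4 D6 libraries below the mock range. The call of Bub1 was lost in 9 of 20 alternative settings, among them the fits without D6 replicate 1, 3 or 4 and without mock replicate 1, 4 or 7, while Otud4, Bcl2l2 and Uhmk1 kept theirs in all 20. Otud4 was the tightest of them, at 101, 105, 103 and 102 CPM against 125 to 152 CPM. Its fall was not particular to D6. With D5 at 1 nM it was at 72.3 to 107 CPM (log2 fold change against mock -0.59, edgeR adjusted p = 0.00010). With D4 at 1 nM it was at 104 to 115 CPM (-0.37). Bcl2l2 and Uhmk1 belong to a list of 5 genes with a mer8 match that an earlier analysis of these data had named for D4 at 10 nM. The other 3 members were not called, Rnft1 at -0.16, Ifi204 at 0.02 and Hsd17b6 at 0.29.

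Nck1, an adaptor that links receptor tyrosine kinases to actin, was at 20.02, 20.5, 26.9 and 23.0 CPM against 32.7, 35.6 and 44.7 CPM in mock (log2 fold change -0.69, adjusted p = 4.1e-05). Tgfbr1, the type I receptor for TGF-beta, was at 21.2, 28.7, 25.1 and 34.2 CPM against 35.2, 42.9 and 49.7 CPM, so that its highest D6 library came close to the mock range (log2 fold change -0.64, adjusted p = 0.0014). Lox, lysyl oxidase, which cross-links collagen, was at 21.8, 11.995, 14.2 and 16.6 CPM against 23.7, 29.8 and 41.0 CPM (log2 fold change -0.94, adjusted p = 0.0086). The remaining genes of the 14 largest falls besides Ttr without overlap were Ap1s2, Fam83d, Ccl9, Rpgrip1l and Cenpe, with log2 fold changes between -0.90 and -0.64. Fam83d, Ccl9 and Rpgrip1l were below 12 CPM throughout and lost their call when any of several single libraries was left out.

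**Figure D1:**
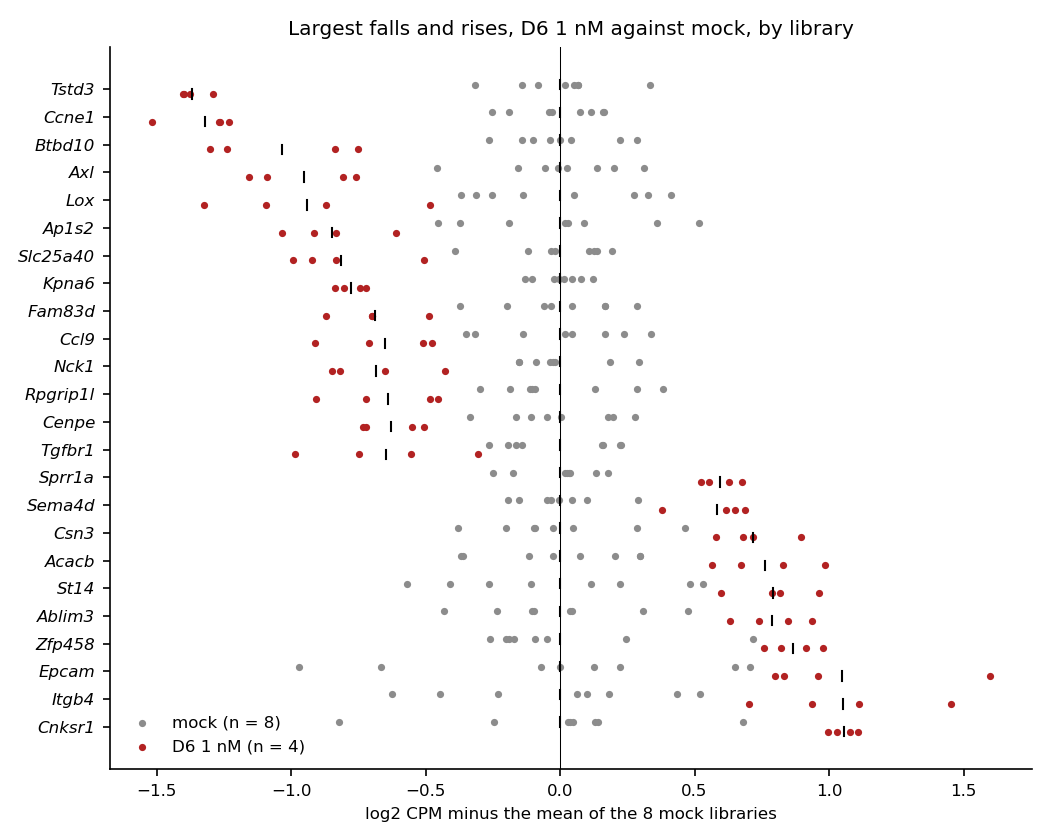
Log2 CPM relative to the mean of the 8 mock libraries (x axis) for the 14 largest falls besides Ttr and the 10 largest rises among called genes without overlap of the groups (y axis); each point is a library (grey, mock, n = 8; red, D6 at 1 nM, n = 4) and each short black line a group mean. In every row the red points lie on one side of all grey points, and Epcam, Itgb4 and Cnksr1, all below 12 CPM, have mock libraries spread over more than 1 log2 unit.

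Seed matches were more frequent among the fallen genes than among those tested. Of 144 fallen genes with an annotated 3′-UTR, Ttr included, 66 (45.8%) had a match of some class, compared with 17 of 94 risen genes (18.1%) and 2626 of all 10689 tested genes (24.6%). The fallen genes held 18 mer8, 14 mer7m8 and 34 mer7A1 matches. By class, 3.97% of the 453 mer8 genes, 1.57% of the 893 mer7m8 genes and 2.66% of the 1280 mer7A1 genes were called lower, against 0.967% of the 8063 genes without a match. The median log2 fold change was -0.04 for mer8, -0.01 for mer7m8, -0.02 for mer7A1 and 0.01 for genes without a match, and most genes with a match were not called. Among the 20 largest falls 12 had a match, 7 of them mer7A1. The 3′-UTRs differed in length as well, with medians of 3440 bases for fallen genes, 3001 for all tested, 3986 for genes with a match and 2698 for those without, and the part of length in these shares was not tested.

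**Figure D2:**
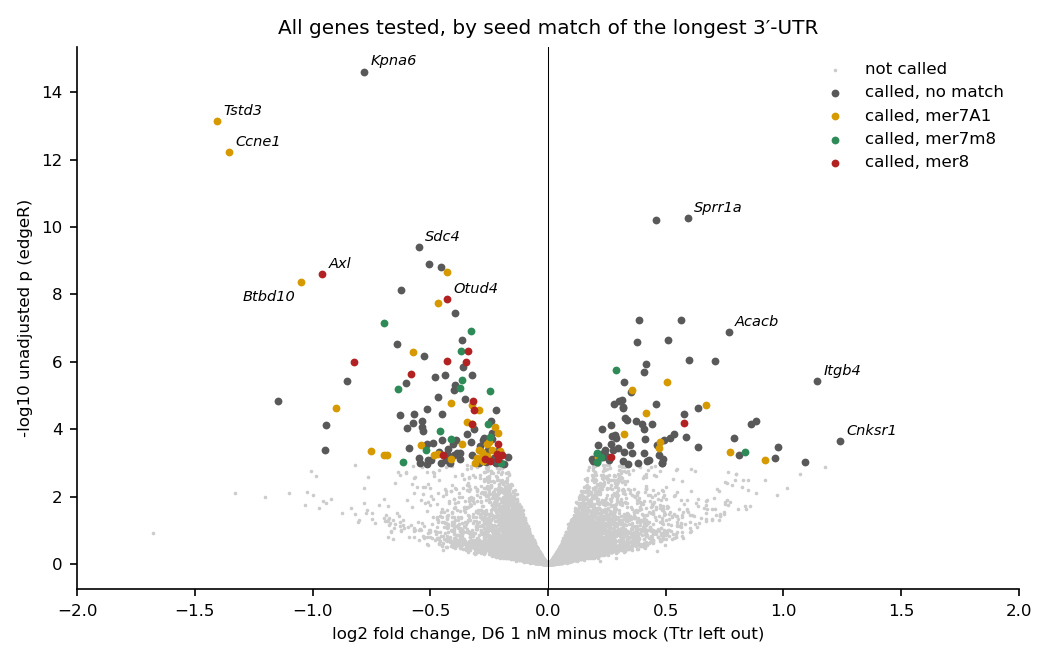
Log2 fold change of D6 at 1 nM against mock (x axis) and -log10 of the unadjusted p from edgeR (y axis) for every gene tested besides Ttr, which lies outside the axes at -8.68; light grey points were not called, and the 239 called genes are coloured by the strongest seed match of the longest 3′-UTR. Coloured points are more frequent on the left, where 65 of 143 genes with a 3′-UTR have a match, than on the right, where 17 of 94 do; Kpna6, the highest point, has none.

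The seed score of a library, the mean log2 CPM of the genes of a class minus that of genes without a match, was computed for protein-coding genes with a mean of at least 1 CPM, Ttr left out, and set to 0 at the mock mean. For the 465 mer8 genes it was -0.112, -0.0190, -0.0245 and -0.0542 in the 4 D6 libraries (mean -0.052 ± 0.043, SD), against -0.0243 to 0.0311 in mock (SD 0.019, n = 8). The mean was lower by more than the spread of either group, but D6 replicate 2 lay inside the mock range and replicate 3 at its edge. For mer7m8 genes the mean was -0.028 ± 0.031 and for mer7A1 genes -0.041 ± 0.032 (SD, n = 4), and in both classes D6 replicate 1 was the lowest library and at least 1 other D6 library was within the mock range. The D4 libraries at the same dose gave -0.055 ± 0.027, -0.020 ± 0.017 and -0.018 ± 0.017 for mer8, mer7m8 and mer7A1 genes, and the D5 libraries -0.020 ± 0.047, -0.0056 ± 0.029 and -0.014 ± 0.025 (SD, n = 4). The scores of the 3 siRNAs overlapped in every class. Without D6 replicate 1 the means were -0.033 for mer8, -0.012 for mer7m8 and -0.025 for mer7A1 genes.

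**Figure D3:**
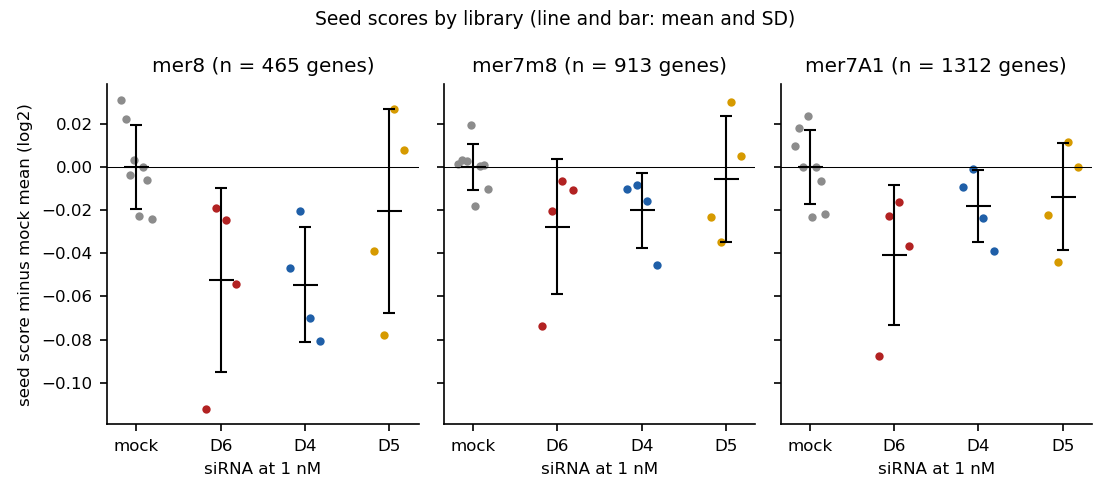
Seed score of each library (y axis, log2, mock mean set to 0) for genes whose strongest match is mer8, mer7m8 or mer7A1 (panels), in mock (n = 8), D6, D4 and D5 at 1 nM (n = 4 each; x axis); long lines are means and bars SDs. The D6 means are -0.052, -0.028 and -0.041, the single lowest D6 point is replicate 1 in each panel, and D6 and D4 points overlap.

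Of the lists of functions, the one with the most calls was the cell cycle list of 24 genes of S phase and mitosis. All 24 had a negative log2 fold change, and 11 were called lower and none higher, with a list median of -0.35 beside -0.001 for all genes tested. The share of genes called lower was 1.28% over all genes. The count was 7 without D6 replicate 4, 5 from sequencing run 1 alone and 4 in a fit of all libraries of the series together. In bulk RNA, fewer cycling cells and less of these mRNAs per cell cannot be told apart.

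Rrm2, the small subunit of ribonucleotide reductase, was at 57.8, 47.8, 48.4 and 49.4 CPM with D6 and at 59.2, 68.9 and 85.2 CPM in mock (log2 fold change -0.48, SE 0.086, adjusted p = 0.00072). Top2a, the DNA topoisomerase of dividing cells, was at 108, 94.7, 93.7 and 95.5 CPM against 114, 126 and 158 CPM (log2 fold change -0.39, SE 0.073, adjusted p = 0.0011). Foxm1, the transcription factor of mitotic genes, was at 36.2, 33.5, 34.4 and 35.3 CPM against 39.98, 47.7 and 52.1 CPM (log2 fold change -0.41, adjusted p = 0.0030). In each of these genes the groups did not overlap, but the gap was narrow. Beside these and Ccne1, the called members were Ccne2 (-0.63), Plk1 (-0.57), Ccnb1 (-0.55), Ccna2 (-0.54), Bub1 (-0.45), Birc5 (-0.41) and Mki67 (-0.35), cyclins, mitotic kinases, a survivin gene and the proliferation antigen Ki-67. The 4 replication licensing and clamp genes Mcm2, Mcm3, Mcm5 and Pcna had values between -0.20 and -0.11 and were not called, and neither were the cyclin D1 gene Ccnd1 (-0.08) and E2f1 (-0.03).

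Of the 11 fallen list genes, 5 had a seed match (45.5%), beside 8 of all 24 (33.3%), and the fallen genes outside the list had one in 61 of 133 cases (45.9%). Promoter sequences from RefSeq (GRCm38.p6, 250 bases before to 50 after the start) were matched for 8 of the 11. The letters CCAAT, on either strand, were in 6 of these 8, against 38.1% of the promoters of tested genes, TTTGAA was in 3 of 8, against 12.2%, and TTTGGCG was in none, against 2.61%. Shares for the list members that were not called are not given. These values therefore cannot set the fallen genes apart from a list that was chosen by function.

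Over the list, the mean log2 CPM was 5.14 to 5.31 in the 4 D6 libraries and 5.42 to 5.76 in the 8 mock libraries, without overlap. It was 5.31 to 5.54 with D6 at 0.1 nM, 4.76 to 5.11 at 10 nM and 4.67 to 5.20 at 50 nM. Each dose shared the mock libraries, with list medians of -0.12, -0.35, -0.70 and -0.90 from 0.1 to 50 nM. In libraries that the 1 nM comparison did not use, 10 against 0.1 nM, the list median was -0.59 and 15 of the 24 genes were called lower, with all 11 genes fallen at 1 nM among them, and 4 were called higher, against 10% and 8.15% of all genes. The 4 that rose with dose were Mcm2, Mcm3, Mcm5 and Pcna, whose values between 10 and 0.1 nM were 0.24, 0.35, 0.42 and 0.35.

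**Figure D4:**
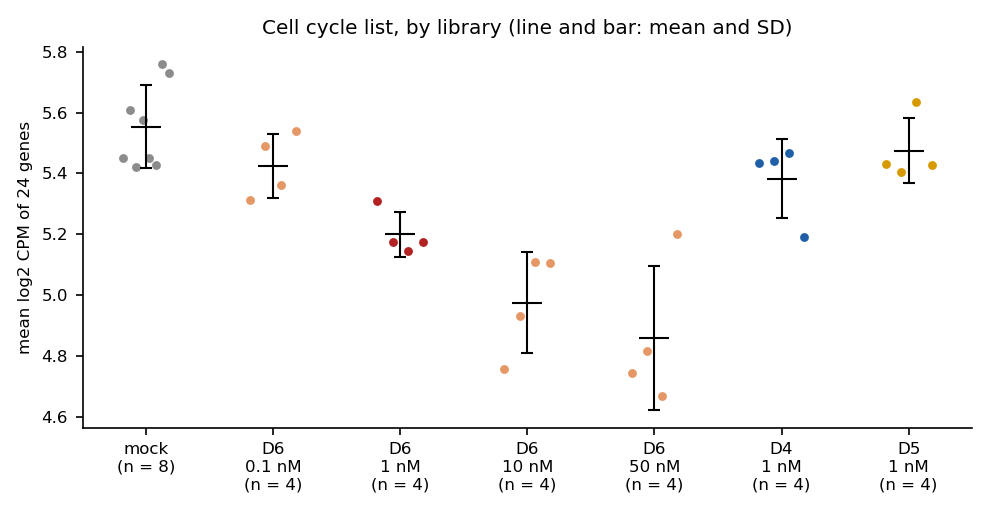
Mean log2 CPM of the 24 genes of the cell cycle list in each library (y axis) for mock (n = 8), D6 at 0.1, 1, 10 and 50 nM and D4 and D5 at 1 nM (n = 4 each; x axis); long lines are means and bars SDs. The 4 libraries of D6 at 1 nM lie between 5.14 and 5.31, below all mock libraries, and 3 of the 4 D4 libraries lie within the mock range.

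Among the risen genes, Sprr1a, a cornified envelope precursor, was the most abundant. It was at 5261, 4825, 4735 and 5079 CPM with D6 and at 2770, 3359 and 3724 CPM in mock, 1.51 times higher (log2 fold change 0.59, SE 0.060, adjusted p = 1.2e-07), with a clear gap between the groups. Acacb, acetyl-CoA carboxylase 2, whose product malonyl-CoA restrains fatty acid oxidation, was at 30.7, 37.0, 33.2 and 41.3 CPM against 15.9, 21.01 and 25.5 CPM (log2 fold change 0.77, SE 0.116, adjusted p = 7.1e-05). Itgb4, the integrin beta 4 of hemidesmosomes, was at 6.47, 11.2, 7.69 and 8.72 CPM against 2.33, 4.06 and 5.66 CPM (log2 fold change 1.14, SE 0.212, adjusted p = 0.00092). Sema4d (a semaphorin), Csn3 (kappa-casein) and St14 (the membrane protease matriptase) rose by 0.60, 0.71 and 0.79. Cnksr1, Epcam, Zfp458 and Ablim3 rose by 0.84 to 1.24, but were at most at 6.47 CPM in every library, and Epcam, Zfp458 and Ablim3 lost their call when any 1 of the 4 D6 libraries was left out, Cnksr1 without D6 replicate 2 or 4. Epcam, an epithelial adhesion molecule, was at 3.44, 5.58, 3.03 and 3.11 CPM against 0.596, 1.66 and 2.82 CPM. It is one of the 12 cholangiocyte markers, of which 9 were tested and only Epcam was called. These markers as a list stood apart from mock: they summed to 327 to 360 CPM with D6 and 295 to 316 CPM in mock, and the mean log2 CPM of the tested ones was 4.28 to 4.44 against 3.84 to 4.14, both without overlap. The list was not raised with D6 alone. With D5 at 1 nM it summed to 328 to 352 CPM, with means of 4.25 to 4.37, both without overlap with mock. With D4 at 1 nM it summed to 318 to 381 CPM, without overlap, but its means of 4.04 to 4.60 overlapped mock. Epcam was at 4.35 to 7.50 CPM with D4 and at 2.92 to 4.72 CPM with D5. The part of the list level in the rises of Epcam, Itgb4 and St14 with D6 was not tested.

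No gene for the partners of transthyretin in plasma was called. Rbp4, the retinol-binding protein that circulates with it, was at 492, 445, 437 and 459 CPM with D6 and at 380, 420 and 444 CPM in mock, ranges that overlapped (log2 fold change 0.14, SE 0.051, adjusted p = 0.14). None of the 20 tested genes for plasma carrier proteins was called, with 18 positive values and a median of 0.12, nor was any of 10 for retinoid handling (median 0.02). Hao1, the target of other siRNAs of the series, and Gapdh had adjusted p-values of 0.43 and 0.96, with log2 fold changes of -0.17 and 0.01.

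Of the 25 lists of functions, 17 had no call and the other 8 held, besides the cell cycle list, 1 or 2 calls each, where 2.13% of all genes were called. No gene was called among 27 interferon response genes (median 0.02), 12 RNA sensing genes (-0.02), 20 acute phase and NF-kB genes (0.02) or 16 genes of the RNA interference machinery (-0.03). The interferon genes varied widely within both groups, as in Rsad2, an antiviral enzyme, at 151, 95.1, 119 and 76.2 CPM with D6 and 58.6 to 114 CPM in mock (adjusted p = 0.35). Cytosolic ribosomal proteins (39 genes) and the nuclear-encoded respiratory chain (40 genes) had medians of -0.03 and -0.02 with no call.

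Lists of hepatocyte function mostly had small positive medians. Complement (17 genes), bile acid synthesis and transport (12), fatty acid oxidation (24), cholesterol synthesis (24), gluconeogenesis and glycolysis (16) and amino acid catabolism (21) had medians of 0.14, 0.14, 0.04, 0.06, 0.04 and 0.05 and no call. In coagulation, 1 of 21 genes was called, Plg (plasminogen), at 0.21, with overlapping groups. In the cytochrome P450 list, 2 of 24 rose: Cyp3a13 by 0.29 and Cyp2b10, the classic target of the receptor CAR, by 0.81. Cyp3a13 had overlapping groups and was not called without D6 replicate 2 or 4. Cyp2b10 was at 15.2, 6.41, 8.90 and 7.06 CPM with D6 against 3.76 to 7.64 CPM in mock, with replicate 1 the highest, and the gene was not called without replicate 1, without replicate 3 or without any 1 of 5 mock libraries. In fatty acid synthesis, Acacb rose and Agpat2, an acyltransferase of triglyceride synthesis, fell by 0.32. The call of Agpat2 was lost with the replicate block, from sequencing run 2 alone and without D6 replicate 4.

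In the stress lists, single members moved in both directions. Of 20 p53 response genes, Btg2, an antiproliferative gene, rose from a mock range of 83.1 to 116 CPM to 144, 162, 133 and 132 CPM (log2 fold change 0.42, adjusted p = 0.00037), and Ccng1, cyclin G1, which has a mer7m8 match, fell by 0.25 with overlapping groups. Of 20 unfolded protein response genes Xbp1, its transcription factor, rose by 0.21. Of 23 genes of oxidative stress and metallothionein Ephx1 (epoxide hydrolase) rose by 0.30 and Gsta2 (a glutathione transferase) by 0.43. No gene was called among 20 of the integrated stress response (median 0.05), 20 of the actin cytoskeleton and extracellular matrix (0.00) and 20 of the endosome and lysosome (0.10). Plg, Xbp1 and Gsta2 each lost their call in at least 9 of the 20 alternative settings tried. Ephx1 was not called without D6 replicate 4, and Ccng1 was not called with the replicate block.

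The comparison of 10 with 0.1 nM tested the genes called at 1 nM in other libraries. Of the 144 fallen genes besides Ttr, 136 were lower at 10 than at 0.1 nM and 112 (77.8%) were called lower, beside 10% of all 11152 genes tested there. Of the 95 risen genes 82 were higher and 58 (61.1%) were called higher, beside 8.15%. As shares of the genes called in that comparison, these were 10% of 1117 and 6.38% of 909. The median log2 difference between 10 and 0.1 nM was -0.64 for the genes fallen and 0.35 for those risen at 1 nM. Kpna6 fell by 1.89 and Uhmk1 by 1.36, and Itgb4 rose by 3.24, from 2.65 to 7.03 CPM at 0.1 nM to 41.3 to 52.2 CPM at 10 nM. Of the 10 named rises, Csn3 and Zfp458 had negative values there, -0.34 (adjusted p = 0.10) and -0.22 (adjusted p = 0.69), and were not called.

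Against mock, the calls grew with dose from 6 at 0.1 nM to 2923 at 10 nM and 3572 at 50 nM, with 240 at 1 nM (0.0532%, 25.8%, 31.5% and 2.13% of the genes tested). The count at 0.1 nM ranged from 3 to 20 when 1 library was left out (3 without D6 0.1 nM replicate 2 or 3 or mock replicate 4, 14 without D6 0.1 nM replicate 1, and 11, 20 and 10 without mock replicate 3, 6 and 8), and was 14 with DESeq2 and 67 with all genes of at least 1 count. With mock replicates 1 to 4 as the only mock libraries it was 90, and 171 with the replicate number as a block, beside 331, 2493 and 3319 at 1, 10 and 50 nM with the block. At 0.1 nM the called genes besides Ttr were Ccne1 (-0.59), Nrk (-0.48), Parp12 (-0.44) and Irgm1 (-0.31), which were lower (0.0443% with Ttr), and D630045J12Rik (0.66), which was higher (0.00886%). Ccne1 and Nrk, a kinase gene, were thus called at the lowest dose as well as at 1 nM. For the 144 genes fallen at 1 nM the medians were -0.12, -0.39, -0.75 and -0.90 from 0.1 to 50 nM, all measured against the same mock libraries.

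D4 and D5 differ from D6 only at guide position 6, where D4 has no GNA and D5 has GNA-G. The pairs D6 with D4 and D6 with D5 were tested at 1 nM and 24 h, with p-values adjusted over the genes of both pairs together, and both used the same D6 libraries. Ttr was at 2.26, 1.84, 5.33 and 1.30 CPM with D4 and at 1.72, 0.79, 2.68 and 2.40 CPM with D5, so that all 3 siRNAs overlapped. Ttr was too low for the count filter in these pairs, and in a fit of all genes with at least 1 count the log2 difference was -0.77 (95% interval -1.53 to -0.01) between D6 and D4 and -0.22 (-1.14 to 0.70) between D6 and D5, with adjusted p-values of 0.73 and 0.92.

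Between D6 and D4, 7 of 11075 genes (0.0632%) were called, 3 lower (0.0271%) and 4 higher (0.0361%) with D6. Clic1, a chloride channel family protein, was at 207, 193, 184 and 209 CPM with D6, at 145, 132, 140 and 145 CPM with D4 and at 191 to 224 CPM in mock. Of the D6 libraries 3 lay within the mock range and 1 just below it, all apart from those of D4 (log2 difference 0.50, 95% interval 0.37 to 0.62, adjusted p = 3.3e-05). Cyp2c70, a bile acid hydroxylase with a mer7A1 match, had all D6 libraries within the mock range, at 140, 145, 162 and 154 CPM with D6, 107, 102, 111 and 116 CPM with D4 and 133 to 174 CPM in mock (0.47, adjusted p = 0.00016), as did Slc25a17, a peroxisomal carrier (0.35, adjusted p = 0.045), whose call held in 2 of 8 fits that left out 1 library. Kpna6 lay between: 80.3 to 87.1 CPM with D6, 56.97, 60.7, 69.3 and 66.7 CPM with D4 and 131 CPM in the lowest mock library (0.40, 95% interval 0.25 to 0.56, adjusted p = 0.011). The mock-like level of Cyp2c70 held for 1 nM only: with D6 at 10 nM it was at 53.4 to 70.3 CPM, below the mock range. At that dose Clic1 was at 184 to 200 CPM and Slc25a17 at 59.9 to 87.8 CPM, both overlapping mock.

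Itgb4 was lower with D6 than with D4, at 19.4, 15.9, 17.96 and 13.7 CPM with D4 against at most 11.2 CPM with D6 (log2 difference -0.98, 95% interval -1.33 to -0.63, adjusted p = 0.0045). The other 2 genes, Sdc4 and Top2a, were lower with D6 than with both D4 and mock. Sdc4, the heparan sulfate proteoglycan syndecan 4, was at 125, 114, 101 and 116 CPM with D6, at 172, 168, 159 and 154 CPM with D4 and at 147 to 190 CPM in mock (-0.51, adjusted p = 5.0e-05). Top2a was at 144, 138, 147 and 110 CPM with D4, where the lowest library was just above the highest of D6 (-0.45, adjusted p = 0.0050). Of the 24 cell cycle genes 23 had a negative difference between D6 and D4, with a median of -0.15, and only Top2a was called, without D6 replicate 2 or 3 no longer. Ccne1 did not pass between D6 and D4, with a difference of -0.12 and an interval from -0.48 to 0.24.

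Between D6 and D5, 13 of 11056 genes (0.118%) were called, 12 lower (0.109%) and 1 higher (0.00904%) with D6. Tstd3 was at 18.8, 22.2, 30.5 and 28.8 CPM with D5, so that all D5 libraries lay above those of D6 (log2 difference -1.17, 95% interval -1.50 to -0.84, adjusted p = 0.00079). Ccne1, at 17.9, 20.04, 23.4 and 21.2 CPM with D5, differed by -1.13 (-1.44 to -0.81, adjusted p = 0.00079), and Lox by -1.07 (adjusted p = 0.0045). Kpna6, at 140, 133, 117 and 128 CPM with D5, differed by -0.62 (-0.77 to -0.47, adjusted p = 0.00010). The other lower genes were Tgfbr1 (-0.68), Plk1 (-0.64), Hmbox1 (-0.52), Nrk (-0.46), Sdc4 (-0.45), Ghr, the growth hormone receptor (-0.42), Ajuba (-0.38) and Arhgef7 (-0.37), and Sprr1a was higher (0.35). Kpna6 and Sdc4 were the 2 genes called in both pairs, Kpna6 in opposite directions. The D4 call of Kpna6 held in 4 of 8 fits that left out 1 library and was lost without D4 replicate 1 or 2 or D6 replicate 2 or 3. Against D5, the calls of Tstd3, Ccne1, Lox and Kpna6 held in all 8 such fits, whereas those of Plk1 and Hmbox1 held in 2, of Tgfbr1 and Nrk in 3 and of Sprr1a in 4 of 8.

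Most genes that fell with D6 did not pass in either pair, and the intervals were often wide. Axl, with the strongest mer8 fall besides Ttr, differed by -0.06 (-0.36 to 0.24) from D4 and by -0.65 (-0.94 to -0.35, adjusted p = 0.11) from D5. Bcl2l2 differed by 0.35 from D4 (0.17 to 0.53, adjusted p = 0.17) and by -0.29 from D5 (-0.47 to -0.11, adjusted p = 0.42). Over all mer8 genes tested the median difference was -0.004 between D6 and D4 and -0.02 between D6 and D5, beside 0.005 and 0.008 for genes without a match. The counts of these pairs rested on single libraries: between D6 and D4 they were 4 without D6 replicate 2 or 3 and 16 without D4 replicate 4, and between D6 and D5 they were 4 without D6 replicate 2, 6 without D6 replicate 4, 8 without D6 replicate 3, 8 without D5 replicate 1, 5 without D5 replicate 4 and 37 without D5 replicate 2.

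**Figure D5:**
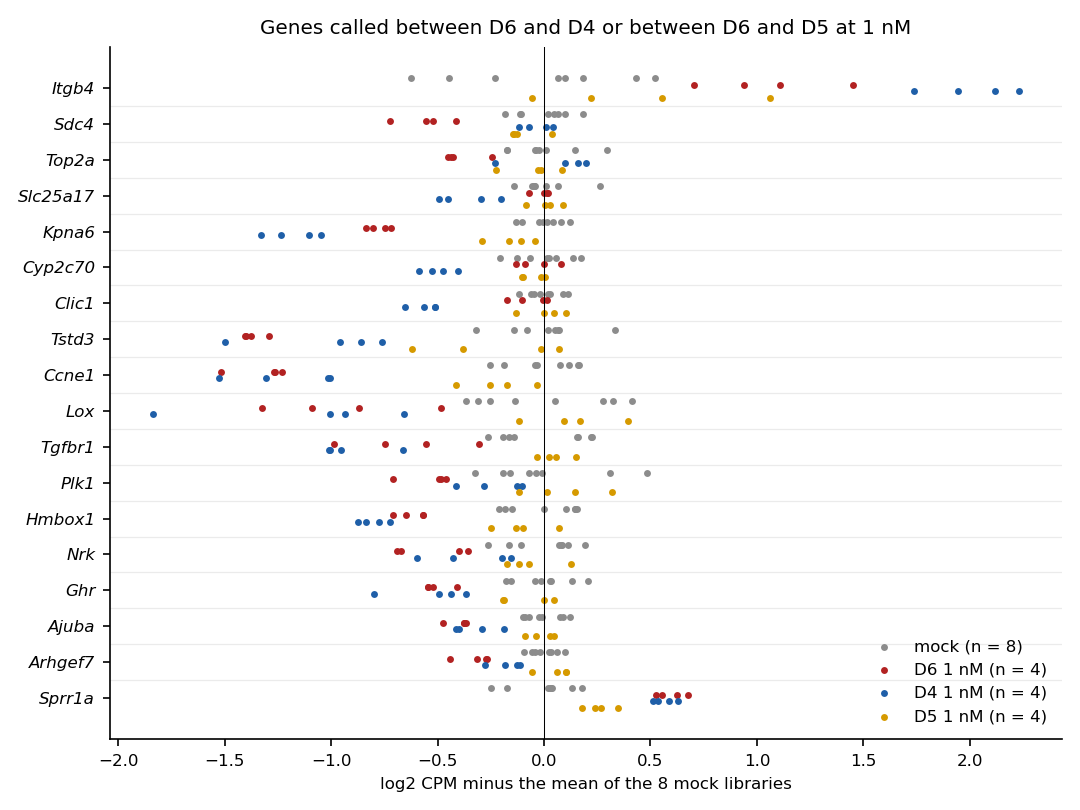
Log2 CPM relative to the mean of the 8 mock libraries (x axis) for the 18 genes called between D6 and D4 or between D6 and D5 at 1 nM (y axis), one point per library (grey, mock, n = 8; red, D6; blue, D4; yellow, D5; n = 4 each). Kpna6 is ordered D4, D6, D5 from low to high, Clic1, Cyp2c70 and Slc25a17 have their D4 points to the left of the other siRNAs, and Tstd3, Ccne1 and Tgfbr1 have their D5 points to the right of D6.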

How the data were processed

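Gene expression was measured by RNA sequencing (TruSeq Stranded Total RNA, NextSeq500) in the libraries described above. The authors deposited raw counts per gene, 2 sequencing runs per library. According to the submitters' processing notes and the study's methods, reads were filtered, aligned to GRCm39 with STAR, and uniquely aligned reads were counted with featureCounts 2.0.2. The annotation release and the strand setting of the counting are not given in the sources used here, so overlapping antisense genes cannot be told apart. Tables from DESeq2 1.32.0 were also deposited. They hold mean expression, log2 fold changes, standard errors and p-values, of which none was used, and only their gene symbols were taken.

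The counts of both runs were summed, 92 ERCC rows were removed and 52340 of 55416 genes received a symbol. Runs of a library differed by about counting error, with a chi-square per degree of freedom of 0.990 to 1.07. Genes passing filterByExpr were tested with edgeR 4.0.16 (TMM, robust quasi-likelihood test) in R 4.3.3, with Benjamini-Hochberg adjustment over all genes tested and a threshold of 0.05. The 2 pairs of siRNAs were adjusted together. CPM values were computed by edgeR from the counts with TMM-scaled library sizes over the libraries of the groups used here. Seed matches were read from the GRCm39 genome and GENCODE M39 annotation.

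The members and gene lists were chosen with earlier results of these data known. Genes named were Ttr, Rbp4, Hao1 and Gapdh, the 15 largest falls and 10 largest rises among called genes whose groups did not overlap, up to 4 members per list, and the genes called between siRNAs. Further genes, such as other members of the cell cycle list and Cnot6, are also named. Not all of these are marked as chosen after their values were seen.

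Tested on simulated data for D6 against mock (11167 genes, 200 changed), the fit recovered 100% of log2 changes of -2 and -1, 78% of -0.5 and 90% of 0.5, and called 10 unchanged genes. The changed genes were drawn only from those above a minimum expected count, so recovery among low-count genes was not tested. The simulated libraries were independent, so the dependence on single libraries was not covered. Alternatives were RLE size factors, DESeq2 1.42.0 with betaPrior, other filters, a fit of all libraries, each run alone, the replicate number as a block, and leaving out each library. Some items were left out and are not reported here.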

Additional observations from a re-analysis of the deposited data

Results flagged for a closer look

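Single libraries stood apart from the rest of their group in 6 of 192 group and gene combinations examined, where chance alone flags about 5%. Among the D6 libraries, replicate 3 was low for Ccne1 (log2 CPM 3.09, the others 3.34 to 3.38) and for Plk1 (4.20, the others 4.42 to 4.45). The same replicate was high for Gapdh (9.56, the others 9.54), a gap that is small in absolute terms. Replicate 1 was high for Top2a (6.77, the others 6.56 to 6.58). Among the mock libraries, replicate 3 was low for Btg2 (6.38, the others 6.66 to 6.86) and replicate 4 was low for Ctsd, the lysosomal protease cathepsin D (8.76, the others 8.98 to 9.17).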

How the results depend on the processing

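With all genes of at least 1 count tested, the number called rose from 240 to 372 for D6 at 1 nM against mock, from 7 to 24 against D4, from 13 to 44 against D5 and from 6 to 67 for D6 at 0.1 nM against mock. DESeq2 with betaPrior called 21 genes between D6 and D5 and 14 at 0.1 nM. A fit of all libraries called 3 genes at 0.1 nM and 4 cell cycle genes at 1 nM, and run 1 alone called 5 cell cycle genes. Of the 23 oxidative stress genes DESeq2 called 5 and the fit of all genes with at least 1 count called 8, beside 2. The cause of these shifts was not tested. Leaving out 1 library at a time gave 111 to 342 calls at 1 nM against mock, 4 to 16 against D4, 4 to 37 against D5, 3 to 20 at 0.1 nM and 7 to 13 fallen cell cycle genes. The share of fallen genes with a seed match stayed between 42.3% and 52.2%, and the Ttr change between -8.97 and -8.51. Of 45 named called genes, 23 kept their call under every setting tried, 22 lost it under at least 1 and 0 changed sign.

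Replicate numbers were shared between the groups, but did not pair the libraries: deviations of same-numbered D6 and mock libraries correlated at -0.157, 0.0955, 0.0527 and -0.101, and no D6 library correlated best with its own number. With the replicate block on replicates 1 to 4 the count was 331, beside 392 for the same libraries without the block, and at 0.1 nM it was 171 with the block, beside 90 without it. The fits without the block on replicates 1 to 4 were added after seeing the data. Depth limits the low genes: the residual Ttr level rests on 5 to 12 reads a library.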

Other observations

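The risen genes below lie outside the lists, were chosen after their values were seen and are given singly, not as a group. Ppl, the desmosomal protein periplakin, was at 404, 423, 382 and 400 CPM with D6 and at 265, 298 and 319 CPM in the lowest, middle and highest mock library (log2 fold change 0.46, edgeR adjusted p = 1.2e-07). Cdh1, E-cadherin, rose by 0.39 and Dsg2, a desmosomal cadherin, by 0.32. Each had all 4 D6 libraries above the mock range. Between 10 and 0.1 nM, in other libraries, Ppl, Cdh1 and Dsg2 rose by 0.79, 0.81 and 0.79, whereas Nectin1, an adhesion protein, which rose by 0.32 at 1 nM, had a value of 0.13 there and was not called (adjusted p = 0.30).

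Csn3 had log2 fold changes against mock of 0.53, 0.71, 0.18 and 0.31 at 0.1, 1, 10 and 50 nM. Parp12 and Irgm1, called lower at 0.1 nM, were not called at 1 nM, with values of -0.25 (adjusted p = 0.12) and -0.06 (adjusted p = 0.85) and overlapping groups.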
